A study of Mus musculus with 8 samples.

Results

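The neurotrophins and their receptors were followed as 6 genes of the count table, *Ntrk2*, *Ntrk3*, *Ngfr*, *Bdnf*, *Ntf3* and *Sort1*, out of 27179 genes in all. *Ntrk2* was chosen by its p-value between the sorted populations, the smallest of all genes, and the other members were listed by family with that contrast in view. The level and fold change of *Ntrk2* are therefore given as a description, and no test of a member is drawn on. RNA came from lungs of female mice labeled C57BL/6 (C57BL/6J in the study's methods) that carried Eml4-Alk tumors. The labels call the rearrangement a translocation and the methods an inversion. It was made by an adenovirus that delivers Cas9 with a pair of guide RNAs to the lung. When the probe was given, the mice were 18 to 22 weeks old, 11 to 12 weeks after tumor induction. All mice received the quenched Cy5 probe QZ1, coupled to polyethylene glycol and opened by protease cleavage, at 4.5 nmol in the tail vein, and lungs were taken 2 hours later. Cells were sorted into a QZ1-hi population (labeled QZ+) and a QZ1-lo population (labeled QZ-), at least 100000 cells each, with 4 libraries per population. Replicate numbers only name the libraries of a population, in the order of their records. The labels do not say whether libraries of equal number in both populations share a mouse. Leukocytes were gated out by CD45 and CD11b. The sort did not select for the rearrangement, so each library is a mixture of cell types. No healthy lung was part of this table.

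Neurotrophins are secreted growth factors that are made as proneurotrophins and cut to their mature form. Mature factors bind Trk receptor tyrosine kinases: BDNF and neurotrophin 4 bind TrkB, the product of *Ntrk2*, and neurotrophin 3 binds TrkC, the product of *Ntrk3*. The p75 receptor, the product of *Ngfr*, binds the mature factors more loosely and, with sortilin, the product of *Sort1*, binds the uncut forms. Outside the nervous system, TrkB signaling is known from blood vessels, where BDNF acts on endothelial and mural cells.

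Library totals ranged from 18380918 to 26847938 counts, and a count of 3 in 1 library corresponded to 0.0894 to 0.179 CPM (counts scaled to a common library total, here adjusted by the trimmed mean of M values, TMM). Mitochondrial and ribosomal RNA genes took 43.7 to 65.6% of the counts of a QZ1-hi library and 34.0 to 53.2% of those of a QZ1-lo library. The TMM factors were 0.660 to 1.10 in QZ1-hi and 0.969 to 1.35 in QZ1-lo. Both ranges overlapped between populations. Of 15583 genes with enough counts to be tested by edgeR, 9.88% were called higher in QZ1-hi and 8.21% lower at an adjusted p under 0.05, and their median log2 fold change was 0.02. With library size as the only scaling that median was -0.44, so fold changes depend on this choice by about that amount. All fold changes are QZ1-hi over QZ1-lo.

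*Ntrk2* lies on the plus strand of chromosome 13 at chr13:58806569-59133970 (GRCm38, GENCODE M21). The sequence before its start is shown because *Ntrk2* carried the large difference among the members. It covers the 250 bases before the RefSeq start on GRCm38.p6, at chr13:58806319-58806568, plus strand, 5′ to 3′, with each CpG dinucleotide in capitals.

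Ntrk2: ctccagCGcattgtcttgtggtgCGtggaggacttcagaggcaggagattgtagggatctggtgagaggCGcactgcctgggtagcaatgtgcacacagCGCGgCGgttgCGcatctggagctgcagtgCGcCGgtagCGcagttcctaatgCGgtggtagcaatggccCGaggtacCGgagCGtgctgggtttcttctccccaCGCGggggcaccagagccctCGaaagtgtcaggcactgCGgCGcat

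This stretch held 19 CpG dinucleotides and 62.8% G and C, against a median of 6 CpG dinucleotides and 52.4% over 32851 RefSeq promoters of the same length. At least 19 were found in 19.7% of those promoters. None of 4 motifs searched on both strands was present: TGACG (the core of the cAMP response element), GGGCGG (GC box), CACGTG (a form of the E-box) and CCGGAA (a form of the ETS site). Shorter or other forms of the E-box and ETS site were not searched, so their absence is not claimed. TGACG was present in 17.8% of all promoters, GGGCGG in 32.7%, CACGTG in 6.02% and CCGGAA in 12.0%. *Bdnf*, the gene of the main TrkB ligand, has 7 starts in the same RefSeq table. The promoter of 1 of these 7 holds TGACG, read on the opposite strand as CGTCA and set in capitals below. It is shown because *Bdnf* is induced through this kind of element in neurons, and it lies at chr2:109692186-109692435, plus strand, GRCm38.p6, within the *Bdnf* gene at chr2:109674700-109727007.

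Bdnf: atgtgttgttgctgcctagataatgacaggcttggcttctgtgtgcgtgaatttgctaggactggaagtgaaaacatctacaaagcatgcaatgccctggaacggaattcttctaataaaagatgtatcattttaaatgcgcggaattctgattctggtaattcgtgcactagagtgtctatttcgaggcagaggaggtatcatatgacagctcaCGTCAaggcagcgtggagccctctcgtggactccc

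*Ngfr* and *Ntf3* also had a promoter in the RefSeq table. Promoters of *Ntrk3* and *Sort1* were not analysed here. A match to a motif is a description of letters and not a site.

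*Ntrk2*, the TrkB receptor, had 1074, 778, 857 and 781 counts in QZ1-hi replicates 1 to 4 and 112, 42, 83 and 56 counts in QZ1-lo replicates 1 to 4. On the CPM scale these were 45.5, 38.4, 49.5 and 46.5 in QZ1-hi and 3.34, 1.71, 3.003 and 2.29 in QZ1-lo. The lowest QZ1-hi library was far above the highest QZ1-lo library, and the populations did not overlap. The means were 45.01 ± 4.71 CPM (SD, n = 4) and 2.59 ± 0.730 CPM (SD, n = 4). The log2 fold change was 4.11 ± 0.22 (SE), which is 17.3-fold. The gene with the next smallest p-value, *Arhgef15*, a guanine nucleotide exchange factor of endothelial cells, was just outside the rule, at 3.54 ± 0.21 (SE) on the same log2 scale. In bulk libraries, fewer cells of a type and less RNA per cell cannot be told apart.

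**Figure D1:**
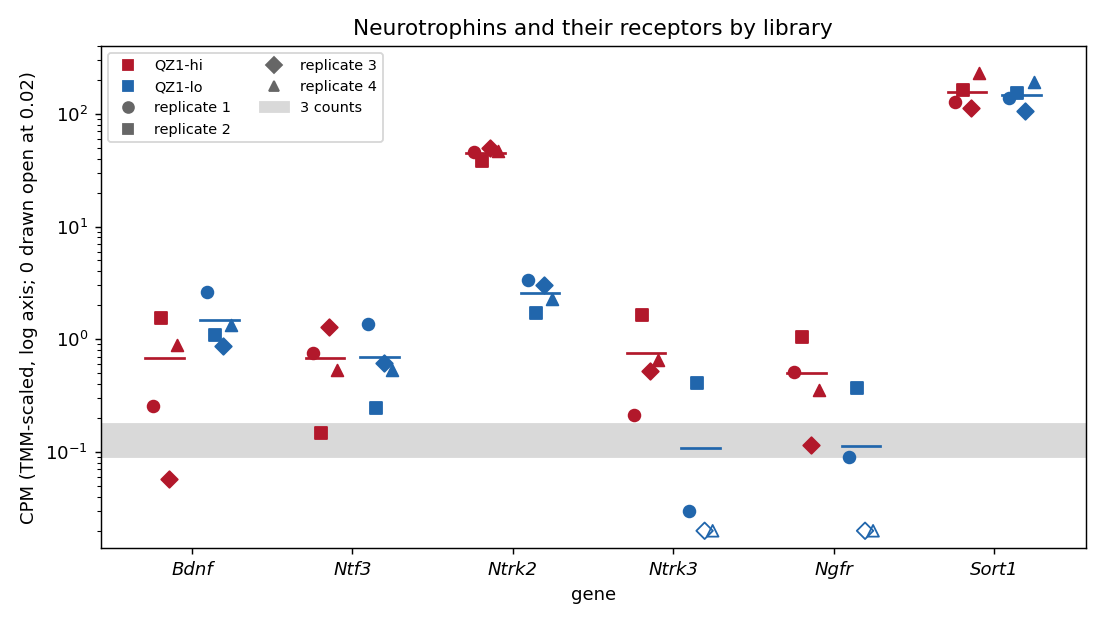
TMM-scaled CPM (vertical log axis) of the 6 neurotrophin genes, named on the horizontal axis; each point is a library, colored by population and shaped by replicate, lines are means of 4, open points at the bottom are 0, and the gray band is the level of 3 counts. *Ntrk2* sits at 38.4 to 49.5 CPM in QZ1-hi and 1.71 to 3.34 CPM in QZ1-lo, while the points of the other 5 genes overlap between populations. Of all genes tested, 11.9% did not overlap with QZ1-hi higher, and 10.7% with QZ1-hi lower.

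The spread of *Ntrk2* between libraries is a description too, because a rule on the smallest p-value favors genes that vary little. Its coefficient of variation was 10.5% in QZ1-hi, where 3803 genes with a mean within 2-fold of it had a median of 14.5%, and 28.5% of those genes varied less. In QZ1-lo it was 28.2%, against a median of 37.5% over 3546 genes of like level, and 30.7% of those varied less. The highest QZ1-hi library was 1.29-fold above the lowest, and in QZ1-lo this ratio was 1.95.

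*Ntrk2* has 8 coding transcripts in GENCODE M21. Of these, 2 encode 821 codons and 5 encode 466 to 492 codons, and 1 is a fragment of 50 codons. TrkB is known in a full-length form with the kinase domain and in truncated forms without it. Counts per gene add all of them, so the share of kinase-bearing TrkB was not measured here.

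*Ntrk3*, the TrkC receptor, was near the limit of counting. It had 5, 33, 9 and 11 counts in QZ1-hi and 1, 10, 0 and 0 counts in QZ1-lo, or 0.212, 1.63, 0.520 and 0.656 CPM against 0.0298, 0.407, 0 and 0 CPM. Replicate 2 was the highest in each population, and its QZ1-lo value lay above the lowest QZ1-hi value, so the populations overlapped. *Ntrk3* did not pass the filter on low counts and was not tested. Without that filter its log2 fold change was 2.75 ± 1.39 (SE), from 58 counts in all in QZ1-hi and 11 in QZ1-lo.

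*Ngfr*, the p75 receptor, was equally sparse, with 12, 21, 2 and 6 counts in QZ1-hi and 3, 9, 0 and 0 counts in QZ1-lo. These correspond to 0.508, 1.04, 0.116 and 0.358 CPM in QZ1-hi and 0.0894, 0.366, 0 and 0 CPM in QZ1-lo. Replicate 2 was again the highest in both populations, and the ranges overlapped. *Ngfr* did not pass the filter either, and without it the log2 fold change was 2.11 ± 1.44 (SE), from 41 and 12 counts. No library had more than 33 counts of *Ntrk3* or 21 counts of *Ngfr*, where the lowest QZ1-hi library had 778 counts of *Ntrk2*.

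*Sort1*, the sortilin receptor, which also carries proteins to lysosomes in most cells, was the most abundant member. It had 2988, 3274, 1943 and 3844 counts in QZ1-hi and 4628, 3796, 2922 and 4710 counts in QZ1-lo. Scaled, these were 127, 162, 112 and 229 CPM against 138, 154, 106 and 193 CPM. The populations covered almost the same range, and replicate 4 was the highest and replicate 3 the lowest in both. Exons of *Sort1* overlap the gene *Gm12523* on the opposite strand. The log2 fold change was 0.09 ± 0.23 (SE), and -0.42 with library size as the only scaling.

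Of the ligands, *Bdnf* had 6, 31, 1 and 15 counts in QZ1-hi and 88, 27, 24 and 33 counts in QZ1-lo. On the CPM scale it was at 0.254, 1.53, 0.0578 and 0.894 in QZ1-hi and at 2.62, 1.10, 0.868 and 1.35 in QZ1-lo. The QZ1-lo mean of 1.48 ± 0.784 CPM (SD, n = 4) was above the QZ1-hi mean of 0.684 ± 0.668 CPM (SD, n = 4), but the libraries overlapped. The log2 fold change was -1.12 ± 0.82 (SE), and without QZ1-hi replicate 2 it was -1.91. Exons of *Bdnf* overlap the gene *Gm45346* on the opposite strand, and the strand setting of the counting is not given in the sources used here.

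*Ntf3*, the TrkC ligand neurotrophin 3, had 18, 3, 22 and 9 counts in QZ1-hi and 46, 6, 17 and 13 counts in QZ1-lo. The CPM were 0.763, 0.148, 1.27 and 0.536 against 1.37, 0.244, 0.615 and 0.532. Replicate 2 was the lowest in both populations and the ranges lay on top of each other. The log2 fold change was -0.04 ± 0.78 (SE). With each library left out in turn it ran from -0.56 to 0.54, so no direction can be given.

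Of the 6 members, 4 passed the filter on low counts. Of these, 1 was called higher by edgeR (*Ntrk2*) and 0 lower, beside 9.88% and 8.21% of all genes tested; because the rule used this contrast, nothing is read from the count. At an unadjusted p under 0.05 in edgeR the counts were also 1 and 0. At the adjusted threshold DESeq2 and limma each called 1 higher and 0 lower.

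**Figure D2:**
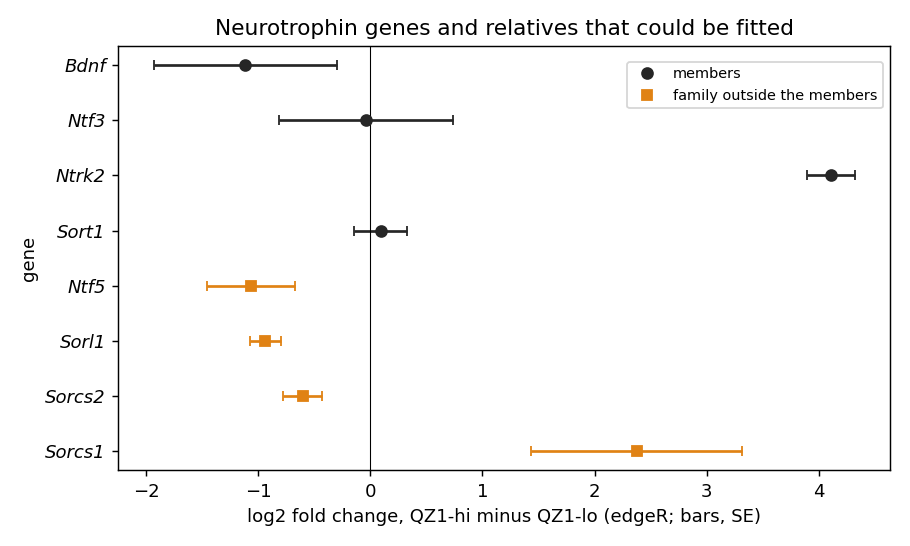
Log2 fold change between QZ1-hi and QZ1-lo (horizontal axis, edgeR, bars are the SE) of the 4 members and 4 relatives with enough counts to be fitted. *Ntrk2* stands at 4.11, *Sorcs1* at 2.37 with an SE of 0.94, and the other 6 genes lie between -1.12 and 0.09.

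The rest of the family gave the other ligands and receptors. *Sorl1*, a sorting receptor of the sortilin family known for its handling of the amyloid precursor protein, was at 76.1, 96.8, 64.8 and 68.9 CPM in QZ1-hi and at 152, 155, 148 and 131 CPM in QZ1-lo. Every QZ1-hi library was below every QZ1-lo library. *Sorl1* fell by 0.93 ± 0.14 (SE) on the log2 scale, with an adjusted p of 0.00109 in edgeR. Its exons overlap *Gm16214*.

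*Sorcs2*, a sortilin relative that partners p75 as a receptor of proneurotrophins, was at 91.3, 72.4, 59.5 and 49.9 CPM in QZ1-hi and at 112, 103, 111 and 89.3 CPM in QZ1-lo. QZ1-hi replicate 1 was above the lowest QZ1-lo library, and the other 3 were below all of them. *Sorcs2* fell by 0.60 ± 0.18 (SE) on the log2 scale, with an adjusted p of 0.0352 in edgeR. The call was lost in 6 of 8 fits that left out 1 library, with an adjusted p of up to 0.0878: those without QZ1-hi replicate 2, 3 or 4 and those without QZ1-lo replicate 1, 2 or 3.

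*Ntf5*, the other TrkB ligand, which encodes neurotrophin 4, was at 2.97, 2.47, 2.54 and 0.894 CPM in QZ1-hi and at 3.31, 5.17, 5.79 and 4.42 CPM in QZ1-lo. No QZ1-hi library reached the lowest QZ1-lo library. Its log2 fold change was -1.07 ± 0.39 (SE) with an adjusted p of 0.0885 in edgeR, which did not pass. With DESeq2 the adjusted p was 0.0470, and with library size as the only scaling in edgeR it was 0.0284.

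*Sorcs1*, a further sortilin relative, was at 3.14, 2.52, 0.752 and 0.238 CPM in QZ1-hi and at 0.745, 0.244, 0.217 and 0.0409 CPM in QZ1-lo. QZ1-hi replicates 3 and 4 were within or near the QZ1-lo range, and the log2 fold change of 2.37 ± 0.94 (SE) did not pass (adjusted p = 0.114, edgeR). Its exons overlap *Gm45352*. *Sorcs3* was too low to be tested, and it had 0 counts in every QZ1-hi library and at most 2 in a QZ1-lo library.

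Of the family genes outside the members, 4 were tested, of which 0 were called higher and 2 lower by edgeR, beside 9.88% and 8.21% of all genes, with a median log2 fold change of -0.77 beside 0.02 over all genes. At an unadjusted p under 0.05, 1 was higher and 3 were lower. DESeq2 called 0 higher and 3 lower, and limma 0 and 2.

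Levels of different genes were compared as CPM per kilobase of exon, with the exons of all annotated transcripts joined. That length was 19.3 kb for *Ntrk2* and 30.2 kb for *Ntrk3*, against 2.65 kb for *Ntf5* and 6.22 kb for *Bdnf*. The order therefore depends on this choice of length. In QZ1-hi the order was *Sort1* (20.8 ± 6.88, SD, n = 4), *Sorcs2* (7.75 ± 2.03), *Sorl1* (6.77 ± 1.25) and *Ntrk2* (2.33 ± 0.244). The neighbors *Sorcs2* and *Sorl1* did not differ beyond their spread, while *Ntrk2* was below *Sorl1* and above the genes that follow. *Ntf5* came next at 0.836, followed by *Ntf3* at 0.397, *Sorcs1* at 0.197, *Ngfr* at 0.146, *Bdnf* at 0.110 and *Ntrk3* at 0.0250.

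In QZ1-lo the order per kilobase began with *Sort1* (19.5 ± 4.78, SD, n = 4), *Sorl1* (12.9 ± 0.941) and *Sorcs2* (11.8 ± 1.18), and again the latter pair did not differ beyond its spread. *Ntf5* followed at 1.76, then *Ntf3* at 0.403 and *Bdnf* at 0.239. *Ntrk2* stood at 0.134 ± 0.0378, below its ligand gene *Ntf5*. Its other ligand gene, *Bdnf* (0.239 ± 0.126), did not differ from *Ntrk2* beyond their spread. In QZ1-hi *Ntrk2* was above the genes of both ligands.

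Among receptor tyrosine kinases, the class of cell surface receptors to which the Trk receptors belong, *Ntrk2* ranked 2 of 47 tested by log2 fold change, after *Epha3*. By CPM per kilobase, with the same joined exon length, it ranked 30 of 47 in QZ1-hi and 44 of 47 in QZ1-lo. The first of these ranks uses the contrast that chose *Ntrk2*, so nothing is read from it.

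The other 56 listed receptor tyrosine kinases gave 46 tested genes, of which edgeR called 20 higher and 9 lower, or 43.5% and 19.6% beside 9.88% and 8.21% of all genes. Their median log2 fold change was 0.66. *Epha3*, an ephrin receptor, had 173 counts in QZ1-hi and 3 in all in QZ1-lo and rose at least 20.9-fold, with the QZ1-lo libraries set at 3 counts each (adjusted p = 0.00153, edgeR). *Tek*, the angiopoietin receptor TIE2, rose from 7.33 ± 3.97 to 102 ± 42.8 CPM (SD, n = 4; log2 fold change 3.79 ± 0.43, SE; adjusted p = 0.000298, edgeR). *Tie1*, its endothelial relative, rose by 3.67 ± 0.43 (SE) on the log2 scale (adjusted p = 0.000364, edgeR).

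Among the kinases that fell, *Erbb3*, a neuregulin receptor of epithelial cells, was at 41.3 ± 7.25 CPM in QZ1-hi and 126 ± 27.6 CPM in QZ1-lo (SD, n = 4; log2 fold change -1.61 ± 0.18, SE; adjusted p = 0.000278, edgeR). *Epha2*, an ephrin receptor of epithelia, fell by 1.27 ± 0.16 (SE) on the log2 scale (adjusted p = 0.000527, edgeR). *Flt3*, a cytokine receptor of blood progenitors and dendritic cells, fell by 2.91 ± 0.71 (SE; adjusted p = 0.0148, edgeR). Its call was lost with limma (adjusted p = 0.129) and without QZ1-lo replicate 2 (adjusted p = 0.0690, edgeR).

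The genes downstream of Trk receptors were summarized by a list of 24 adaptors and effectors, 23 of them tested. By edgeR, 5 were higher and 0 lower, beside 9.88% and 8.21% of all genes, with a median of 0.15. *Plcg1*, the phospholipase C that docks on activated Trk, rose from 41.8 ± 2.70 to 72.0 ± 7.32 CPM (SD, n = 4; log2 fold change 0.79 ± 0.12, SE; adjusted p = 0.000972, edgeR). *Irs1*, an insulin receptor substrate, rose by 0.78 ± 0.20 (SE; adjusted p = 0.0188, edgeR) and *Rapgef1*, an exchange factor for RAP1, by 0.74 ± 0.16 (SE; adjusted p = 0.00701, edgeR). The defining adaptors *Shc1* (log2 fold change 0.31) and *Grb2* (0.04) did not pass. No gene was lower at an unadjusted p under 0.05 either, and DESeq2 called 7 higher and 0 lower, limma 6 and 0. With library size as the only scaling, edgeR called none of the 23.

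The early response genes that Trk signaling induces, which many other growth factors and cell handling also induce, went both ways. Of 10 listed, 9 were tested, and edgeR called 2 higher and 2 lower, beside 9.88% and 8.21% of all genes, with a median of 0.18. *Egr1*, a zinc finger transcription factor, rose by 0.87 ± 0.22 (SE; adjusted p = 0.0167, edgeR) and *Fos*, a subunit of AP-1, by 0.86 ± 0.18 (SE; adjusted p = 0.00770, edgeR). *Arc*, a regulator of synaptic receptor uptake, was at 7.89 ± 4.41 CPM in QZ1-hi and 23.8 ± 5.31 CPM in QZ1-lo (SD, n = 4; log2 fold change -1.59 ± 0.33, SE; adjusted p = 0.00618, edgeR). *Spry2*, a feedback inhibitor of receptor tyrosine kinase signaling, fell by 0.70 ± 0.17 (SE; adjusted p = 0.0131, edgeR). Without the TMM scaling *Egr1* (0.42) and *Fos* (0.39) no longer passed.

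**Figure D3:**
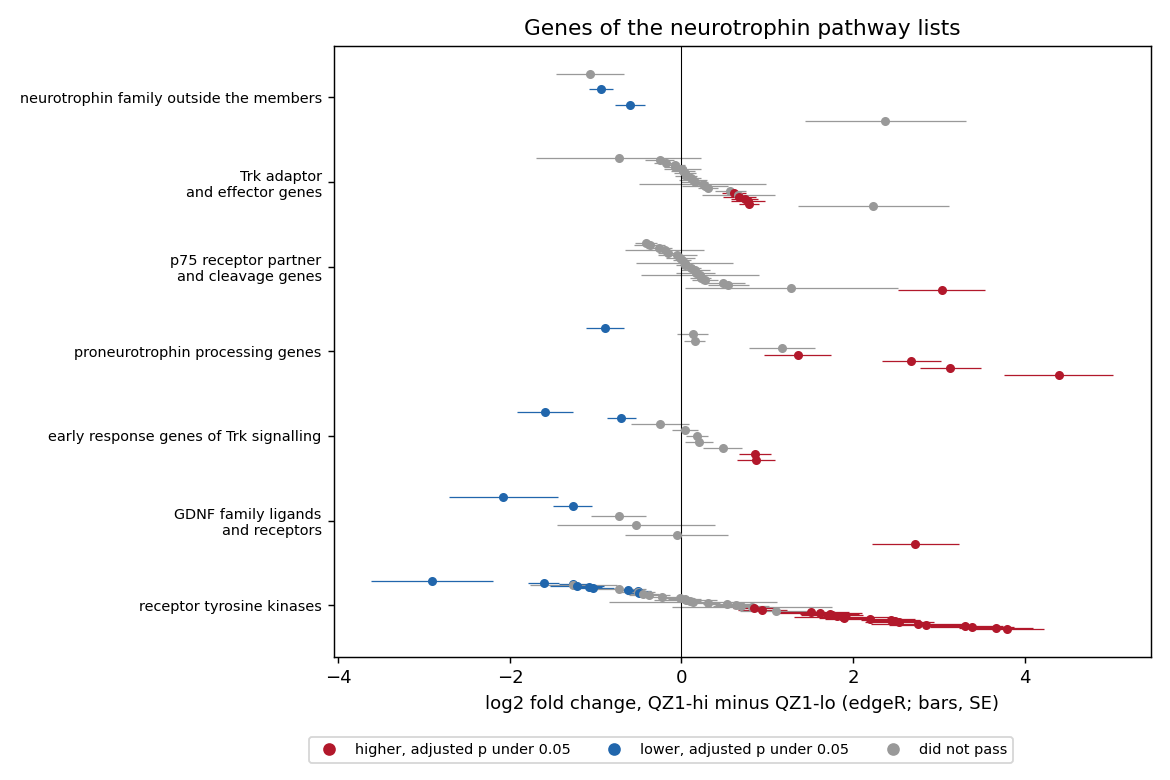
Log2 fold change (horizontal axis, edgeR, bars are the SE) of each tested gene of 7 lists around the neurotrophin pathway, colored by whether it passed an adjusted p under 0.05; *Epha3*, at or under 3 counts in every QZ1-lo library, is left out. The proneurotrophin processing genes run from -0.89 to 4.40 and the Trk adaptors that passed from 0.61 to 0.79.

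The genes that cut or sort proneurotrophins held larger differences. Of 12 listed, 8 were tested, and edgeR called 4 higher and 1 lower, beside 9.88% and 8.21% of all genes, with a median log2 fold change of 1.26. *Plat*, tissue plasminogen activator, which starts the extracellular cutting of proBDNF through plasmin, was at 38.1, 34.8, 67.2 and 28.1 CPM in QZ1-hi and at 4.38, 4.68, 7.60 and 2.41 CPM in QZ1-lo. Replicate 3 was the highest and replicate 4 the lowest in both populations, with no overlap between them. *Plat* rose by 3.14 ± 0.36 (SE) on the log2 scale (adjusted p = 0.000305, edgeR).

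*Mmp3*, a matrix metalloproteinase able to cut proneurotrophins, was at 10.5, 17.3, 22.0 and 9.89 CPM in QZ1-hi and at 0.239, 0.285, 1.95 and 0.327 CPM in QZ1-lo. It rose by 4.40 ± 0.64 (SE; adjusted p = 0.000876, edgeR), with QZ1-lo replicate 3 well above the other QZ1-lo libraries. *Cpe*, carboxypeptidase E, a prohormone processing enzyme and sorting receptor of BDNF, rose from 2.17 ± 0.788 to 13.9 ± 5.43 CPM (SD, n = 4; log2 fold change 2.68 ± 0.34, SE; adjusted p = 0.000526, edgeR). The fourth gene called higher was the proprotein convertase *Pcsk5*.

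*Mmp9*, a gelatinase that also cuts proBDNF, was at 11.7, 12.2, 12.7 and 22.8 CPM in QZ1-hi and at 24.9, 26.3, 31.5 and 27.2 CPM in QZ1-lo. It fell by 0.89 ± 0.22 (SE; adjusted p = 0.0154, edgeR). *Furin*, the main intracellular convertase, differed by 0.15 ± 0.13 (SE) on the log2 scale and did not pass (adjusted p = 0.484, edgeR). The plasminogen gene *Plg* was too low to be tested, and *Mmp7* had 0 counts in every library.

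The partners of p75 and the proteases that cleave it gave 20 tested genes of 22. By edgeR, 1 was higher and 0 lower, beside 9.88% and 8.21% of all genes, with a median of 0.08. *Ndn*, necdin, a p75-binding protein that restrains growth, was at 5.81, 7.66, 6.07 and 4.23 CPM in QZ1-hi and at 0.745, 1.46, 0.434 and 0.246 CPM in QZ1-lo. All QZ1-hi libraries were above all QZ1-lo libraries, and *Ndn* rose by 3.03 ± 0.51 (SE; adjusted p = 0.00190, edgeR). At an unadjusted p under 0.05, 1 gene of the list was lower. *Adam10*, a sheddase, stood at -0.41 ± 0.13 (SE) on the log2 scale with an adjusted p of 0.0505 in edgeR, and it was called lower by DESeq2 and limma, which each called 1 gene lower.

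The GDNF family, another group of neurotrophic ligands, which signals through RET and its co-receptors, gave 6 tested genes of 10. By edgeR, 1 was higher and 2 lower, beside 9.88% and 8.21% of all genes, with a median of -0.63. *Gfra2*, the co-receptor of neurturin, rose from 1.10 ± 0.522 to 7.36 ± 4.24 CPM (SD, n = 4; log2 fold change 2.73 ± 0.51, SE; adjusted p = 0.00344, edgeR). The ligand gene *Gdnf* was at 6.36 ± 1.96 CPM in QZ1-hi and 15.4 ± 1.71 CPM in QZ1-lo (SD, n = 4) and fell by 1.27 ± 0.23 (SE; adjusted p = 0.00316, edgeR). *Gfra1*, the co-receptor of GDNF, fell by 2.08 ± 0.63 (SE; adjusted p = 0.0432, edgeR), a call that was lost in 6 of 8 fits leaving out 1 library (all but those without QZ1-hi replicate 2 or 3), with an adjusted p of up to 0.117. The receptor gene *Ret* did not pass (-0.73; adjusted p = 0.153, edgeR).

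Markers of several cell types moved with *Ntrk2*. Of the endothelial markers (*Cdh5*, *Pecam1*, *Vwf*, *Tek*, *Kdr*, *Cldn5*), 6 of 6 were called higher, and their summed level was 825 to 1949 CPM in QZ1-hi and 60.1 to 255 CPM in QZ1-lo. Of the pericyte markers (*Cspg4*, *Des*, *Higd1b*, *Nes*, *Pdgfrb*, *Trpc6*), 4 of 6 were called higher, with sums of 186 to 324 and 19.9 to 59.2 CPM. Of the fibroblast markers, 5 of 6 were called higher, with sums of 919 to 1844 and 26.8 to 218 CPM. The smooth muscle markers went both ways, with 2 of 4 called higher and 1 lower by edgeR. Their sums were 25.0 to 38.8 CPM in QZ1-hi and 10.3 to 21.5 CPM in QZ1-lo. All 3 mesothelial markers were called higher by edgeR, and 2 by DESeq2 and by limma. QZ1-hi replicate 2, the highest QZ1-hi library in *Ntrk3*, *Ngfr* and *Bdnf*, was also the highest in several marker sums. Its mesothelial sum was 208 CPM, where the other QZ1-hi libraries had 29.7 to 55.7 CPM. Its Schwann cell sum was 35.4 CPM against 25.3 to 27.0 CPM, and its ciliated cell sum 68.6 CPM against 24.5 to 45.4 CPM. *Tek*, *Kdr*, *Pdgfra* and *Pdgfrb* are on both a marker list and the kinase list. The part of these cell types in the results was not tested.

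The range of the marker sums is given beside that of *Ntrk2* without a comparison, since the rule favored a gene with a small spread and a large difference. Within QZ1-hi the highest library was 2.36-fold above the lowest for the endothelial sum, 1.74-fold for the pericyte sum and 2.01-fold for the fibroblast sum, and 1.29-fold for *Ntrk2*. Within QZ1-lo these ratios were 4.24, 2.98 and 8.14, and 1.95 for *Ntrk2*. Between populations the ratio of mean sums was 10.03 for the endothelial list, 6.46 for the pericyte list and 9.95 for the fibroblast list, and *Ntrk2* differed 17.3-fold.

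**Figure D4:**
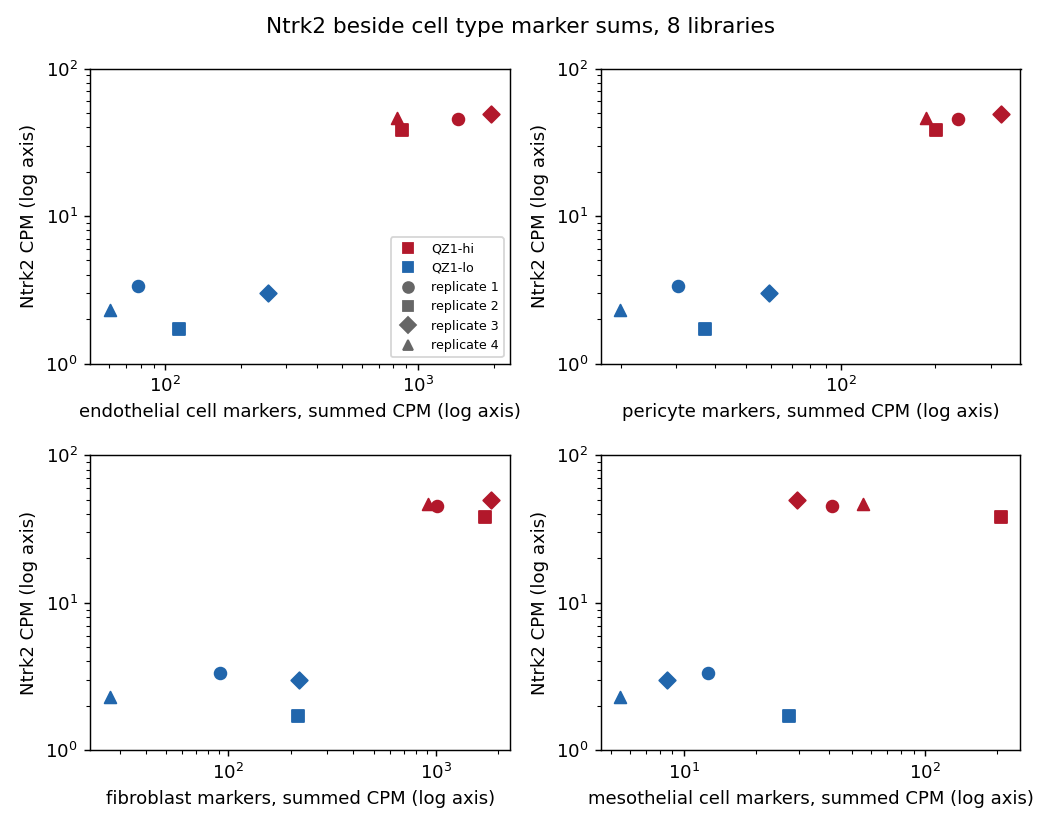
*Ntrk2* (vertical axis) against the summed endothelial, pericyte, fibroblast and mesothelial marker levels (horizontal axes, 1 panel each) in the 8 libraries. Values are TMM-scaled CPM on log axes, colored by population and shaped by replicate. Whether libraries of the same shape share a mouse is not given by the labels. Within QZ1-lo the endothelial sum runs from 60.1 to 255 CPM while *Ntrk2* runs from 1.71 to 3.34 CPM.

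None of the nervous tissue markers was called higher with *Ntrk2*. The Schwann cell list summed to 25.3 to 35.4 CPM in QZ1-hi and 39.7 to 56.7 CPM in QZ1-lo, with 0 of 3 tested markers called higher and 1 lower, and *Cdh19* at 0 counts in every library. Most of that sum was *Mbp*, the lower one, and *Sox10* had 9 counts in all in QZ1-hi and 2 in QZ1-lo. At an unadjusted p under 0.05, edgeR gave 0 higher and DESeq2 and limma 1 each, and at the adjusted threshold both gave 0. The neuron list summed to 1.37 to 2.63 CPM and 1.49 to 1.88 CPM, with *Elavl4* at 0 counts in every library. Of its 1 tested marker, 0 were called by edgeR, DESeq2 or limma, and 0 by edgeR at an unadjusted p under 0.05. The neuroendocrine list summed to 0.938 to 3.10 CPM in QZ1-hi and 2.86 to 7.08 CPM in QZ1-lo. Of its 2 tested markers edgeR called 0, and DESeq2 called 1 marker of the list lower. Platelet markers summed to 17.2 to 35.2 CPM in QZ1-hi and 3.79 to 8.87 CPM in QZ1-lo, with 3 of 4 called higher. The leukocyte markers summed to 113 to 278 CPM and 141 to 211 CPM, with 0 of 4 called in either direction by edgeR, DESeq2 or limma, also at an unadjusted p under 0.05. The epithelial lists did not go one way. Ciliated cell markers summed to 24.5 to 68.6 CPM in QZ1-hi and 132 to 280 CPM in QZ1-lo, with 4 of 4 called lower. Alveolar type 1 markers summed to 294 to 471 CPM and 487 to 634 CPM, with 1 of 4 called higher and 3 lower. Alveolar type 2 markers summed to 5360 to 9834 CPM and 4040 to 6366 CPM, which overlapped, with 1 of 4 called higher by edgeR.

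The genes with the pattern most like *Ntrk2* over the 8 libraries, by Pearson correlation of log2(CPM + 0.5), were *Sgip1* (r = 0.993), *Hdgfl3* (0.992), *Tbx2* (0.989), *Rhobtb3* (0.988) and *Arhgef15* (0.986). With populations this far apart, these values mostly repeat the split between QZ1-hi and QZ1-lo, and they are given as a description. The 5 genes were all higher in QZ1-hi, with log2 fold changes of 5.16, 2.93, 3.08, 2.17 and 3.54 in that order.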

How the data were processed

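RNA was sequenced with a SMARTer Stranded Total RNAseq kit on a NextSeq500. The authors deposited 1 table of raw counts per gene, made with Rsubread in R. The build was mm10 per the submitters' processing notes, which also name DESeq2. The aligner, annotation and strand setting are not given in the sources used here. The labels put 4 libraries in QZ1-hi and 4 in QZ1-lo and call them biological replicates. They do not tie libraries to a mouse, so no block was fitted.

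Of 27179 genes, 25275 were matched to a symbol by gene ID and 1904 were not. From the deposited counts, edgeR 4.0.16 (R 4.3.3) was run with TMM scaling, filterByExpr (minimum count 10, minimum total 15) and the quasi-likelihood test, with Benjamini-Hochberg adjustment over 15583 genes and a threshold of 0.05. The SE was taken from the fitted log2 fold change and its F statistic, as the size of the former over the square root of the latter. The common dispersion was 0.113. The script was tested on simulated data with known changes. There edgeR recovered 30 of 100 genes changed by 1 log2 unit and 74 of 100 changed by 2. A gene that did not pass may therefore still differ. Alternatives were DESeq2 1.42.0, limma 3.58.1 (voom with quality weights), DESeq2 size factors, library size only, no filter, no mitochondrial and ribosomal RNA genes, and 8 fits that each left out 1 library. No 2 replicates were alike within sampling noise (smallest chi-square per gene 35.2). The floor of 3 counts covers counting error only.

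The members and the gene lists were chosen with earlier results of these data known. Named were the members, the family, up to 3 called genes of each other list in each direction, defining genes of a list where needed, 5 genes most like *Ntrk2*, and marker genes. Some genes of the lists are not reported here. *Arhgef15* and *Adam10* are named also for their place beside a threshold, chosen after their values were seen, as was *Pcsk5*. Gene positions and exon lengths are from GENCODE M21 (GRCm38), and promoters from RefSeq (GRCm38.p6).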

Additional observations from a re-analysis of the deposited data

Results flagged for a closer look

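In 4 of 71 gene and population groups of 4 libraries looked at, 1 library stood apart from the other 3 by Dixon's test, a share near the 1 in 20 that chance gives. *Ntrk3* was at 0.407 CPM in QZ1-lo replicate 2, where the remaining QZ1-lo libraries had 0 to 0.0298 CPM. *Mmp3* was at 1.95 CPM in QZ1-lo replicate 3, against 0.239 to 0.327 CPM. QZ1-lo replicate 3 was also the highest QZ1-lo library in most marker sums. These were the endothelial (255 CPM), pericyte (59.2 CPM), fibroblast (218 CPM) and smooth muscle (21.5 CPM) sums. The alveolar type 2 (6366 CPM), ciliated cell (280 CPM), Schwann cell (56.7 CPM) and platelet (8.87 CPM) sums were also highest there. *Cpe* was at 22.0 CPM in QZ1-hi replicate 2, against 10.5 to 11.7 CPM in the other QZ1-hi libraries. That library also had the highest QZ1-hi sums of the mesothelial (208 CPM), Schwann cell (35.4 CPM) and ciliated cell (68.6 CPM) lists. *Mmp9* was at 22.8 CPM in QZ1-hi replicate 4, against 11.7 to 12.7 CPM. That library also had the highest QZ1-hi sums of the leukocyte (278 CPM) and neuroendocrine (3.10 CPM) lists. The part of these cell types in the values was not tested.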

How the results depend on the processing

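The count of members called stayed at 1 under all 6 other settings and all 8 fits that left out 1 library. The log2 fold change of *Ntrk2* was 3.62 with library size as the only scaling and 3.96 to 4.26 with 1 library left out. Library size alone also took the adaptor list from 5 calls to 0 and the early response list from 4 to 2, and over all genes it called 882 higher and 2509 lower instead of 1540 and 1280, which turns the balance toward lower. The p75 list went from 1 call to 2 with DESeq2, with limma, with DESeq2 size factors, with library size only and without mitochondrial and ribosomal RNA genes. With 1 library left out, calls ranged from 1 to 2 in the family list, 3 to 6 in the adaptor list, 1 to 2 in the p75 list, 4 to 6 in the processing list, 3 to 4 in the early response list, 2 to 3 in the GDNF list and 21 to 26 in the kinase list. The adaptor list had 3 calls without QZ1-hi replicate 2 and without QZ1-hi replicate 3. *Irs1* lost its call without QZ1-hi replicate 2 (adjusted p = 0.0634, edgeR), without QZ1-hi replicate 3 (0.0569) and without QZ1-lo replicate 2 (0.0521). *Egr1* lost its call without QZ1-hi replicate 2 (0.0517), QZ1-hi replicate 3 (0.0534) or QZ1-lo replicate 1 (0.0502). Among the genes followed through the settings, none that was called in the fit as reported changed sign. *Pcsk5* and the marker genes other than *Tek* were not followed gene by gene. The causes were not tested. No paired analysis was possible because the labels give no replicate numbers and do not say which libraries share a mouse. Depth limits *Ntrk3* and *Ngfr*, whose counts were at or near the floor in several libraries.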
